A study of Mus musculus with 4 samples.

Results

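The genes described here are 49 ligands and receptors of axon guidance, taken from a named list of the Slit and Robo, netrin, semaphorin and plexin, and ephrin and Eph families. They are 49 of the 49943 RefSeq genes placed on mouse chromosomes 1 to 19, X and Y, and each was matched by its symbol. For each gene, the RefSeq span on mm10 was extended by 50 kb on each side, and the CTCF peaks in that window were collected from 4 deposited peak lists. Peaks of different lists that shared at least 1 base were joined into 1 site. The windows held 918 of the 121759 sites of the whole series.

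The mapped protein, CTCF, binds DNA through zinc fingers and sits at borders of chromatin domains and at the feet of chromatin loops. Its sites were mapped by ChIP-seq in wild-type (WT) embryos of the B6CBAF1 strain, with the same CTCF antibody throughout. Posterior trunk, the tail end of the embryo with tailbud, presomitic mesoderm and the newest somites, came from a pool of about 30 embryos at stage E10 (embryonic day 10). Brain was telencephalon pooled from 6 embryos at E12.5. The forelimb was split into a distal and a proximal part, also WT at E12.5, and both are data of an earlier study that the submitters analysed again. Each tissue had 1 library, so differences between tissues could not be set against a spread between replicates, and no p-value is given. Trunk differed from the other tissues in stage as well as in tissue, and these cannot be told apart. Peak lists hold no expression values, so the tissue labels were not checked against marker genes.

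Growing axons steer by cues that attract or repel them. Slit proteins are secreted and act through Robo receptors, mostly as repellents, for example at the midline of the nervous system. Netrins are secreted cues that attract through Dcc and neogenin and repel through Unc5 receptors, and the repulsive guidance molecules Rgma and Rgmb also bind neogenin. Semaphorins act through plexins, with neuropilins as partners for most class 3 members. Ephrins and Eph receptors are both held in the membrane and signal on cell contact, in each direction. The same cues are used outside the nervous system, in vessels, somites and limbs.

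Promoter sequence was available for 38 of the 49 genes, in 47 windows that run from 250 bases before to 50 after an annotated start (RefSeq, GRCm38.p6, the assembly of mm10). Of these 38 genes, 14 had a CTCF peak over such a window in at least 1 tissue (36.8%), against 25.2% of 17492 protein-coding genes. The sequences of 4 promoters are shown as examples of peaks called in all 4 tissues and of peaks called outside trunk: a very strong peak in every tissue (Ephb1, a receptor for B-class ephrins), a weaker peak in every tissue (Efna2, an A-class ephrin ligand), and a peak called in brain and both forelimb parts but not in trunk (the plexin gene Plxna2 and the Slit receptor gene Robo1). Capitals mark a match, on either strand, to the core of the CTCF motif with 1 of its 8 fixed letters different. That core is 12 letters long and reads CCA, then AG, then GGC, with NN (any 2 letters) between these blocks. Where 2 matches were found, the one nearest the brain summit is shown.
Ephb1 (minus strand of chr9:102354644-102354943): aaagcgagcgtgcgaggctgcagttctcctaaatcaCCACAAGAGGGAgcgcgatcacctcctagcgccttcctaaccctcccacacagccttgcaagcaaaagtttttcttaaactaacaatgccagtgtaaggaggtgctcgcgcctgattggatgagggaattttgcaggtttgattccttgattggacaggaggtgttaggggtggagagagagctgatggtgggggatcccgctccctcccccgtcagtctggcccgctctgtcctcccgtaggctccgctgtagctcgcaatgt
Efna2 (plus strand of chr10:80179232-80179531): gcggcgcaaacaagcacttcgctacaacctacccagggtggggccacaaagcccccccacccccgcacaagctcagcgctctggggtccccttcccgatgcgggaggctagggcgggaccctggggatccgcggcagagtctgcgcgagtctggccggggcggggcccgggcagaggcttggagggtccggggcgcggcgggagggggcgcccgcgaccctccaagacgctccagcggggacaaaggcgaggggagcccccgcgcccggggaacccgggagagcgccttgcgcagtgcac
Plxna2 (plus strand of chr1:194619579-194619878): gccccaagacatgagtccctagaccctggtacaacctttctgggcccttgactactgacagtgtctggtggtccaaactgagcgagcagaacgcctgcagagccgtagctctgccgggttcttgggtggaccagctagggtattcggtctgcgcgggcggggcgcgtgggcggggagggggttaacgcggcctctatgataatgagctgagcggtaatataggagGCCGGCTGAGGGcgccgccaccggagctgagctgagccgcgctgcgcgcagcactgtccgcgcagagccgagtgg
Robo1 (plus strand of chr16:72662899-72663198): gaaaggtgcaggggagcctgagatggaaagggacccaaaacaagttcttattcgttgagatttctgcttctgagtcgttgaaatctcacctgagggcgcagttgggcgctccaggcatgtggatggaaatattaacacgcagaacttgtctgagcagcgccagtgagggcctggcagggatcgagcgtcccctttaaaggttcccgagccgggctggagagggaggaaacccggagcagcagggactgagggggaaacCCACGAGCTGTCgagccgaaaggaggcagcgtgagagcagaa

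In Ephb1 the marked letters CCACAAGAGGGA carry the substitution C12A, with positions counted from 1 at the 5′ end of the motif. Their centre lay 4 bases from the brain summit. That peak stood at percentile 99.0 in trunk and 99.6 in brain, and at 98.9 and 99.0 in the distal and proximal limb lists. A percentile here is the rank of a peak by the authors' p-value within its own list, with the strongest at 100. Efna2 had no such match, and its peak stood at percentile 33.5 in trunk and 44.7 in brain, and at 51.3 and 51.7 in the distal and proximal limb lists. In Plxna2 the match lay on the opposite strand, where it reads CCCTCAGCCGGC with A3C, 38 bases from the brain summit. The Plxna2 peak had a fold of 2.91 in brain, 3.20 in distal and 3.01 in proximal forelimb, where fold is the authors' ratio of summit pileup to local background. In Robo1 the match CCACGAGCTGTC carried G11T and lay 170 bases from the brain summit. The Robo1 peak had folds of 2.83 in brain, 3.83 in distal and 3.63 in proximal forelimb. The Robo1 start in the sequence table, at position 72663149, lies inside the gene span, which begins at 72027518, so it belongs to an internal start of the gene.

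The exact core motif occurred in 1 of the 47 windows, that of the plexin gene Plxnd1, which had no peak. It occurred in 2.34% of 21263 windows of protein-coding genes and in 5.70% of those with a peak. With 1 letter different, which was allowed after the data had been seen, it occurred in 13 of the 47 windows, against 32.5% of all windows. That looser match was in 5 of the 15 member windows with a peak. Its share over all genes was 46.1% of windows with a peak and 28.5% of those without. Matches describe letters in these windows only, and some peaks that overlap a window have their summit outside it. Overlapping matches were counted separately.

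Ephrin and Eph genes made up 14 of the 38 genes with promoter sequence, and 8 of them had a peak. A peak was found for 3 of 6 netrin genes, 2 of 13 semaphorin and plexin genes and 1 of 5 Slit and Robo genes. A peak in all 4 tissues lay over the promoters of the ligand genes Efna2 and Efnb2, the receptor genes Ephb1 and Ephb3, the netrin receptor gene Unc5c and the semaphorin gene Sema3d. That was 6 of the 38 genes (15.8%), against 12.3% of 17492 protein-coding genes. The Sema3d peak ranked at percentile 95.9 in trunk, 97.0 in brain and 94.2 and 96.0 in the limb parts. Efna1, Ephb2 and Unc5b had a promoter peak in trunk alone, at percentiles 31.5, 51.7 and 41.1. Epha5 and Rgmb had one in trunk and brain. The Epha5 peak stood at percentile 37.0 in trunk and 12.4 in brain. Ephb4, a receptor of endothelial cells, had one in trunk, brain and distal forelimb. Its site was called in all 4 tissues, with a fold of 10.61 in proximal forelimb, where the peak did not reach the window. By tissue, 12 of the 38 promoters were overlapped in trunk, 11 in brain, 9 in distal and 8 in proximal forelimb. Of 17492 protein-coding genes, 4128 had an overlapped promoter in trunk, 2723 in brain, 2573 in distal and 2608 in proximal forelimb. A peak counted if any part of it overlapped the window, and some summits lay outside. The brain summit was at -790 bases from the start in Efnb2, -358 in Ephb3, -458 in Ephb4 and 300 in Sema3d, with minus meaning upstream. The trunk summit was at -362 in Ephb2 and 138 in Unc5b.

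The windows of the 49 genes came to 16406 kb in 45 separate stretches, because some neighbours overlap, and held 5.60 sites per 100 kb. The value over all RefSeq gene windows was 5.11 per 100 kb. Trunk had 811 of the 918 sites, brain 529, distal forelimb 451 and proximal forelimb 451. Depth differed between the libraries. Relative to distal forelimb it was 2.21 in trunk, 2.02 in brain and 1.08 in proximal forelimb, read from the lowest background in each list. Pileups and backgrounds were then scaled to the lowest depth, and the same p threshold was applied to every list. This threshold was stricter than that of the deposited lists. Distal forelimb, with no change of depth, fell from 64793 to 62005 peaks, so this setting changes depth and threshold together. After it, 620 sites were called in trunk, 432 in brain, 435 in distal and 436 in proximal forelimb. Brain and both forelimb parts were then within 4 sites of each other, and trunk still had more.

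**Figure D1:**
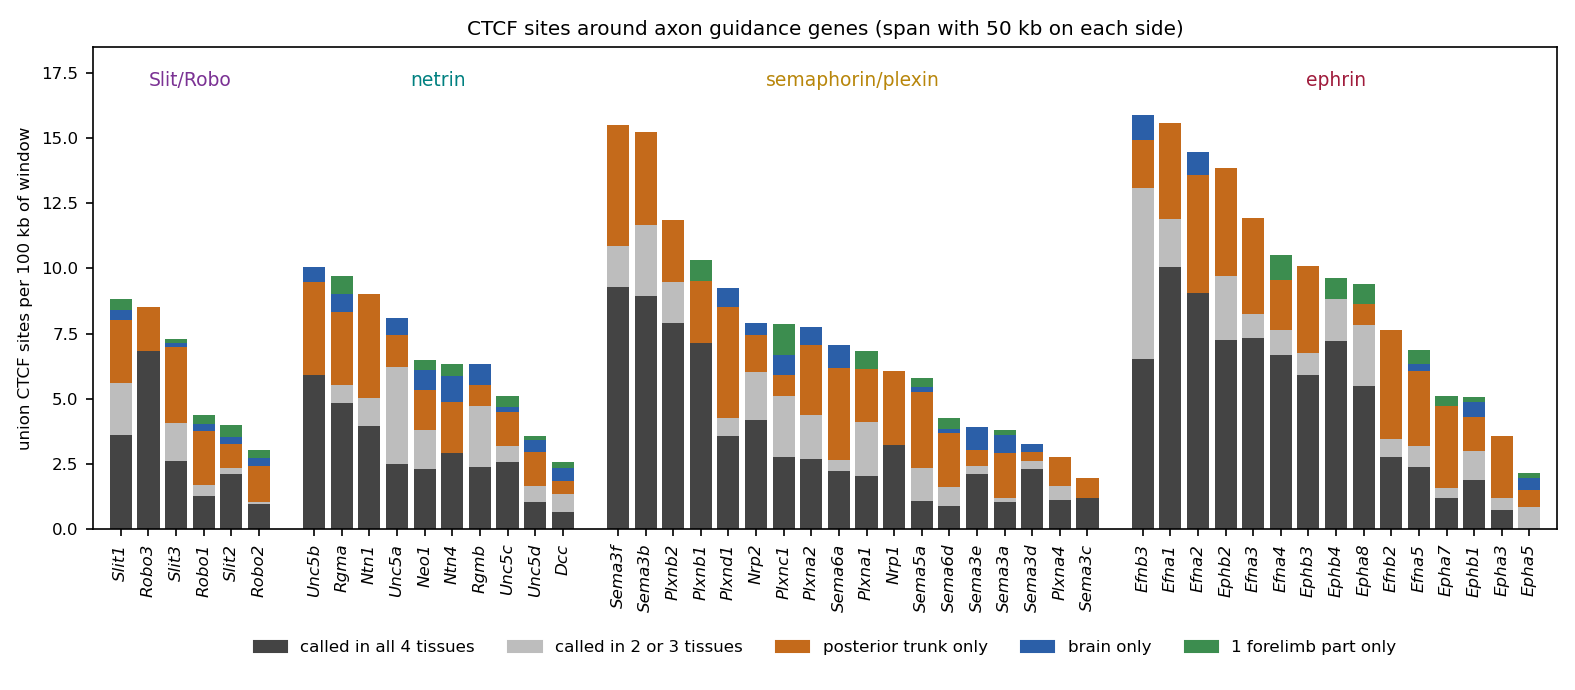
Union CTCF sites per 100 kb of window for each of the 49 genes, ordered within family, with bars stacked by the tissues in which the sites were called. Efnb3 and Efna1 reach 15.9 and 15.6 per 100 kb, and Sema3c has 1.96.

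Ephrin genes had the most sites per 100 kb, at 7.25, followed by semaphorin and plexin genes at 5.73, netrin genes at 5.05 and Slit and Robo genes at 4.65. Ligand and receptor windows differed within families. Ephrin ligand windows held 10.26 sites per 100 kb and Eph receptor windows 6.07. Slit ligand windows held 6.53 and Robo windows 3.77. Netrin and repulsive guidance ligands had 7.96 and their receptors 4.30. Semaphorins went the other way, with 5.06 against 6.73 in plexin and neuropilin windows.

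The 4 densest windows were those of Efnb3 (15.9 per 100 kb), Efna1 (15.6), Sema3f (15.5) and Sema3b (15.2). The last 2 encode secreted semaphorins and lie close together, so their windows share sites. In all, 18 sites lay in more than 1 member window, those of Efna1, Efna3 and Efna4 or of Sema3b and Sema3f. The 4 sparsest were Sema3c (1.96), Epha5 (2.16), the netrin receptor gene Dcc (2.59) and Plxna4 (2.76). Density fell with window length across the 49 genes, with a Pearson correlation of -0.74 against the log of window length and a Spearman correlation of -0.81. Over 21887 protein-coding genes these were -0.10 and 0.035. Each is a description across genes, which share these libraries, with no test.

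Members with short windows were denser than protein-coding genes of the same length class, and those with long windows sparser. Within a class, members still had longer windows. Over 300 kb the median window was 544 kb for members and 425 kb for all protein-coding genes, and from 150 to 300 kb it was 252 and 184 kb. The median was 10.2 sites per 100 kb in 18 member windows under 150 kb, against 7.63 over all protein-coding genes of that class. From 150 to 300 kb it was 7.81 in 14 members against 6.82. Over 300 kb it was 3.92 in 17 members against 4.83. The number of other protein-coding genes in the window moved with density as well, with a Spearman correlation of 0.80 between other genes per 100 kb and sites per 100 kb over the 49 members. The windows of Sema3b and Efna1 held 11 and 7 other protein-coding genes, those of Sema3c, Dcc and Plxna4 held 0, and that of Epha5 held 1. The part of neighbouring genes in the density was not tested.

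**Figure D2:**
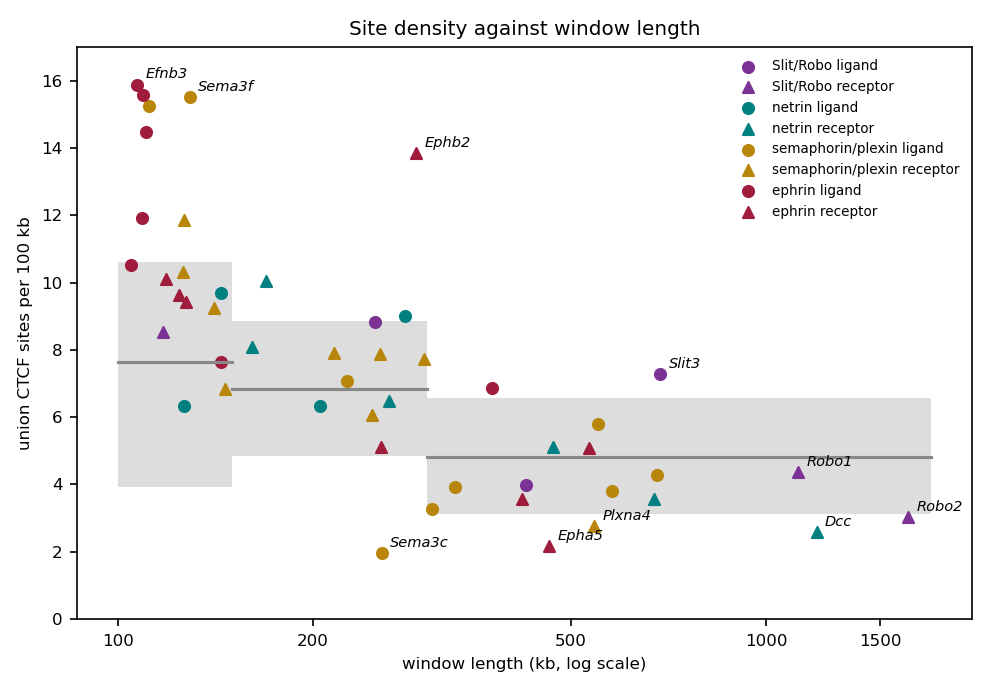
Union CTCF sites per 100 kb against window length on a log scale, with 1 point per gene, circles for ligands and triangles for receptors; the grey lines and bands are the median and quartiles of all protein-coding genes in 3 length classes. Points fall from the upper left to the lower right, from 15.9 per 100 kb in Efnb3 to 2.59 in Dcc and 3.02 in Robo2, and Ephb2 lies above its class at 13.9.

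Sites called in every tissue were denser beside the members than inside them. Of the placements in member windows, 209 lay in gene spans and 182 in flanks. Per length, their density was 1.79 per 100 kb within the gene spans and 3.71 in the 50 kb flanks. Over all protein-coding genes the values were 2.74 and 3.68, so the flanks of the members were close to those of other genes and the spans were lower. This comparison was not matched for gene length. Spans made up 70.5% of the window length of members, against 32.4% over all protein-coding genes. The contrast between spans and flanks was widest for ephrin genes, at 2.06 and 5.13. Sites called in trunk only showed little such difference, at 1.92 in spans and 1.82 in flanks, and sites called in brain only were at 0.33 in both.

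Of the 918 sites, 377 were called in all 4 tissues (41.1%, exact 95% interval 37.9 to 44.3), against 42.4% of all sites. Another 308 were called in trunk only (33.6%, 30.5 to 36.7), against 28.4%. Brain only took 55 (5.99%, 4.54 to 7.73), against 5.92%, and 15 were called in the other 3 tissues but not in brain (1.63%, 0.917 to 2.68), against 1.47%. Distal forelimb alone had 23 (2.51%, against 3.11%) and proximal forelimb alone had 18 (1.96%, against 2.23%). These intervals are Clopper-Pearson and cover counting error only. The member shares were therefore near the background for brain in both directions, and above it for trunk. The trunk difference was not seen in short windows. Pooled over gene windows under 150 kb, trunk-only sites made up 24.9% for members and 24.4% for all protein-coding genes. From 150 to 300 kb the values were 32.4% and 27.0%, and over 300 kb 38.5% and 30.2%. After depth scaling the trunk-only share was 23.9% of 681 sites, against 19.7% of all sites, and 52.3% were called in every tissue, against 53.6%. Distal-only and proximal-only sites then made up 2.50% and 1.91%, against 3.56% and 2.89%.

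Most genes had a site shared by every tissue. In 48 of the 49 windows at least 1 site was called in all 4 tissues. The exception was Epha5, and 12.8% of protein-coding genes had none. A trunk-only site was in 48 windows, against 80.7% of protein-coding genes, and Ephb4 was the member without one. A brain-only site was in 29 windows (31.3% of protein-coding genes had one), a distal-only site in 17 (18.4%) and a proximal-only site in 13 (15.1%). The brain count moved with window length. It was 15 of 17 for members over 300 kb, against 70.7% of all protein-coding genes of that length, 9 of 14 from 150 to 300 kb, against 40.1%, and 5 of 18 under 150 kb, against 26.9%. After depth scaling 15 members had a brain-only site, against 9.75% of protein-coding genes. By length these were 7 of 17 members over 300 kb, against 28.8% of protein-coding genes in that class. From 150 to 300 kb they were 5 of 14, against 12.9%, and under 150 kb 3 of 18, against 7.90%.

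The netrin family had the largest share of brain-only sites before depth scaling. It held 18 of 186 (9.68%, exact 95% interval 5.84 to 14.9). Slit and Robo windows held 11 of 198 (5.56%), semaphorin and plexin windows 18 of 300 (6.0%) and ephrin windows 8 of 234 (3.42%). Among netrin receptors it was 14 of 126 (11.1%), and 6 of these 14 lay around Dcc. Without Dcc the family had 12 of 155 (7.74%). After depth scaling 3 of 134 sites were brain-only in the netrin family (2.24%), 2 of 136 for Slit and Robo (1.47%), 3 of 222 for semaphorins and plexins (1.35%) and 7 of 189 for ephrins (3.70%). The value over all sites was then 1.69%. Of the 7 ephrin sites, 4 had been brain-only before scaling. The other 3, in the windows of Epha3, Ephb1 and Ephb2, had been called in trunk and brain and lost the trunk call. Among semaphorins and plexins 1 of the 3, inside Sema6d, was of the same kind. The order of the families was thus not the same before and after scaling.

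**Figure D3:**
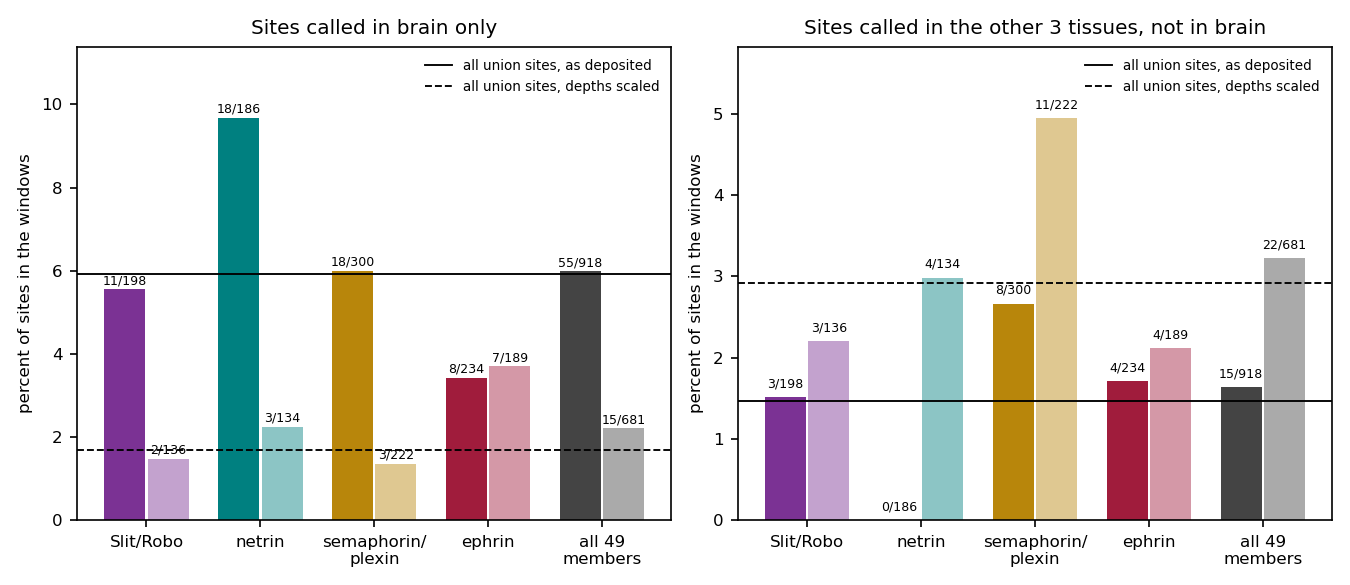
Percent of sites called in brain only (left) and in the other 3 tissues but not brain (right) by family; full colours are the lists as deposited, pale bars follow depth scaling, numbers are counts, and lines give the percent of all sites. Netrin genes stand at 9.68% as deposited and 2.24% after scaling on the left, and semaphorin and plexin genes reach 4.95% on the right.

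Of the 55 brain-only sites, 11 were still called in brain alone after depth scaling and 44 were then called in no list. The 11 were weak to middling peaks, with brain folds from 3.01 to 3.96. The highest fold was at chr10:80133228-80133517, in the window of Efna2 but within the gene Cbarp, with 39 reads stacked at the summit (exact Poisson 95% interval 27.7 to 53.3). The highest rank was that of chr1:194616568-194616832, which stood 3.00 kb from the start of Plxna2 with a fold of 3.59 and percentile 40.7. Another lay 2.11 kb from the start of Rgmb, at chr17:15828677-15828915, with a fold of 3.53 and percentile 35.8. Slit receptors had 1 each, with folds of 3.42 in Robo1 and 3.39 in Robo2. The others lay in the spans of Neo1 (3.73), Ntn4 (3.67), Plxnc1 (3.63), Epha5 (3.46) and Efna5 (3.30), and in the window of Efnb3 within Dnah2 (3.01). The median over all 55 was a fold of 2.59 and percentile 8.71, and over all brain-only sites of the genome the median percentile was 7.19.

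Sites missing from brain alone were fewer, and some had high folds in the other lists. They lay in the windows of 12 genes, against 12.8% of protein-coding genes, whose windows were mostly shorter. Over 300 kb it was 4 of 17 members against 26.8% of protein-coding genes in that class. From 150 to 300 kb it was 3 of 14 against 17.1%, and under 150 kb 5 of 18 against 11.0%. Semaphorin and plexin windows held 8 of the 15 (8 of 300, 2.67%), ephrin windows 4, Slit and Robo windows 3, and netrin windows none of 186. After depth scaling netrin windows had 4 of 134 (2.99%), so their count of 0 did not hold in that setting. The strongest inside a gene was chr5:13127100-13127489 in Sema3a, a secreted repellent, with folds of 8.06 in trunk, 8.22 in distal and 6.19 in proximal forelimb. Its summit pileups were 112, 49 and 35 reads. A site inside Plxna1, a plexin that pairs with neuropilins, had folds of 5.16, 5.80 and 4.09 in the same order. Robo1 had 1 at chr16:73016678-73017022, with folds of 4.41, 4.12 and 4.21, and Plxna2 had 1 at chr1:194806987-194807338 with 3.83, 3.69 and 4.37. In the flanks of Plxna4 and Sema6a the folds were 7.86, 9.63 and 8.53, and 4.56, 5.63 and 3.74. After depth scaling 13 of the 15 kept this pattern. The scaled share was 3.23% of member sites against 2.92% of all sites. These sites lay in the windows of 17 members, against 18.6% of protein-coding genes, a comparison not matched for window length.

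The 2 longest Robo genes had more trunk-only than shared sites in the deposited lists, but fewer after depth scaling. Other members also had more trunk-only than shared sites as deposited, among them Sema5a (16 and 6) and Epha3 (10 and 3). Robo2, with a window of 1655 kb, had 50 sites, of which 16 were shared by every tissue and 23 were trunk-only. Robo1 had 49 sites, 14 of them shared and 23 trunk-only. The count by tissue in Robo1 was 40 in trunk, 18 in brain, 20 in distal and 20 in proximal forelimb. In Robo2 it was 40, 22, 18 and 19. After depth scaling Robo1 had 27 in trunk, 15 in brain, 19 in distal and 17 in proximal forelimb, and Robo2 had 26, 17, 17 and 18. Trunk had the most at both genes before and after scaling. The scaled sites shared by every tissue numbered 13 in Robo1 and 16 in Robo2, against 11 and 10 in trunk only. The strongest one-tissue site of all members was trunk-only, at chr16:73060437-73060954 in the flank of Robo1, with a fold of 7.52, 110 reads at the summit and percentile 63.3. Robo2 had one with a fold of 6.84, at chr16:74045573-74045908. In the netrin family the trunk-only site with the highest fold, 6.0, lay 6.99 kb from the start of Rgmb, at chr17:15838238-15838630. Robo3, which is short, had 10 sites, 8 of them shared and 2 in trunk only. Among ligands, Slit3 had 50 sites and 7.28 per 100 kb, against 3.99 in Slit2 and 8.82 in Slit1.

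In the netrin family, Dcc had 31 sites in a window of 1198 kb, 8 of them in all tissues. Its 6 brain-only sites had folds from 2.26 to 2.94, and none was called in any list after depth scaling. The longest stretch without a shared site was 449 kb. Brain stood out at Dcc in another way, through a shared site near the end of the span with the higher coordinates, which is described with the ranks. Unc5d, a repulsive netrin receptor gene, had 24 sites, 7 shared and 3 in brain only. Unc5b was the densest of the family, with 10.1 per 100 kb and 10 shared sites of 17. Ntn1 had 25 sites with 25 called in trunk, 14 in brain, 12 in distal and 12 in proximal forelimb.

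Among ephrin genes, Epha5 and Ephb2 were opposites. Epha5 had 10 sites, of which 7 were called in trunk, 6 in brain, 1 in distal and 0 in proximal forelimb. Its 4 sites called in trunk and brain together had trunk folds of 3.29 to 5.61 and brain folds of 2.69 to 4.32. A stretch of 196 kb of its window had no site in any list. After depth scaling 2 of its sites were called in brain. Ephb2 had 40 sites, 21 of them shared, and 27 of the 40 were called in brain. Epha3 had 15 sites, all called in trunk but only 5 in brain, and 10 of them were called in trunk alone.

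**Figure D4:**
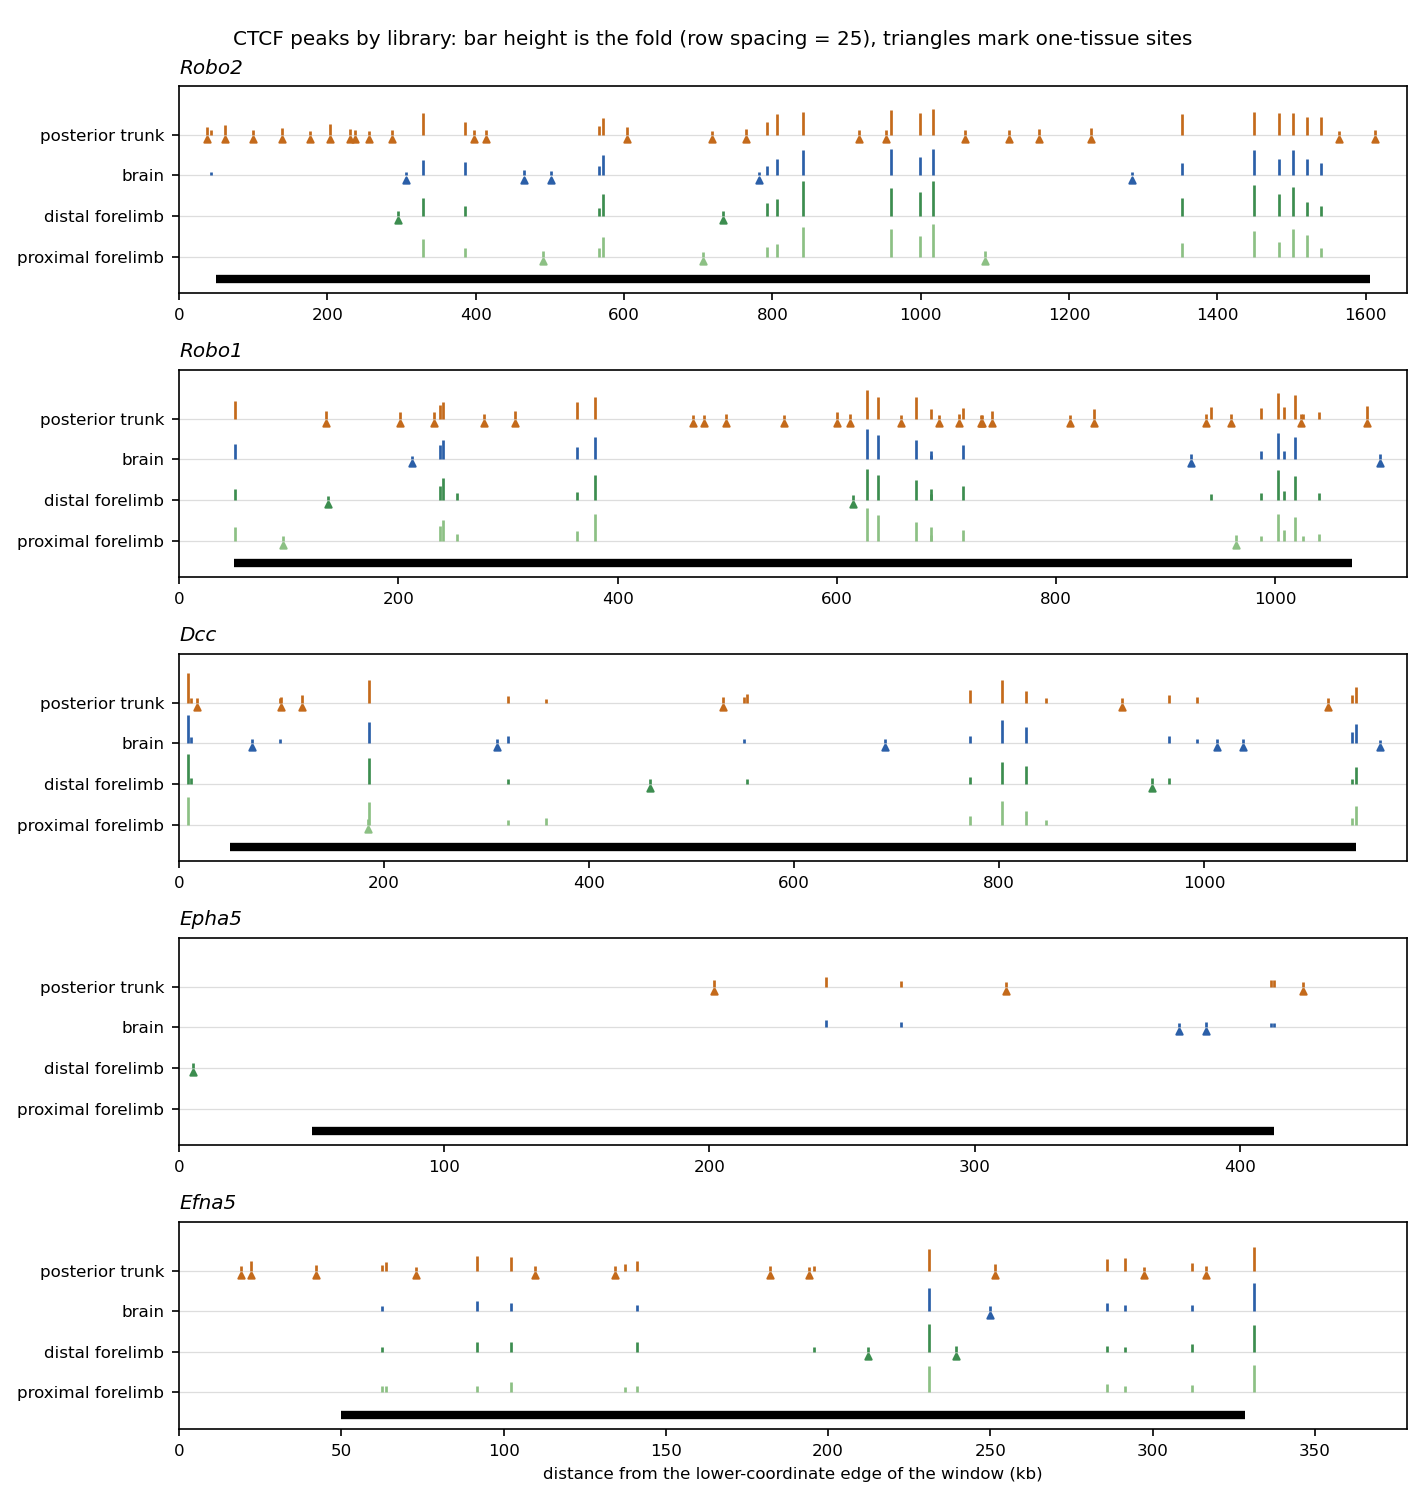
CTCF peaks along the windows of Robo2, Robo1, Dcc, Epha5 and Efna5, with 1 row per library; the x axis is distance in kb from the edge of the window with the lower coordinate, bar height is the fold, triangles mark sites of 1 tissue and the black bar is the gene span. Tall bars line up across the 4 rows in Robo1 and Robo2 (14 and 16 shared sites), trunk-only triangles are the most frequent there (23 in each), and Epha5 has no column with bars in every row.

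One-tissue sites of the forelimb were weak. The highest folds among distal-only sites were 3.87 in Efna5, 3.44 in Dcc and 3.25 in Robo1. Among proximal-only sites they were 3.78 in Robo1, 3.53 in Robo2 and 3.51 in Ntn4. Their highest percentiles were 22.0 for distal and 18.6 for proximal forelimb. For trunk-only sites the median percentile was 20.3 and the highest 63.3.

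The strongest sites were shared, and each family had 1 near the top of every list. They were chr11:35693059-35693707 in Slit3, chr10:60834827-60835604 beside Unc5b, chr10:94958166-94958830 beside Plxnc1 and chr16:63872236-63872881 beside Epha3. The lowest percentile of these 4 sites in any list was 97.3. At the Slit3 site 370 reads were stacked in trunk, 337 in brain, 260 in distal and 243 in proximal forelimb. At the Epha3 site they were 364, 357, 292 and 315.

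To compare strength at the 377 shared sites, each was ranked by p in each list among the 51657 sites called in all 4 tissues. In 16 of them the brain percentile exceeded that of every other tissue by at least 10 points (4.24%, exact 95% interval 2.44 to 6.80), against 2.36% of all shared sites. In 8 it lay below every other by as much (2.12%), against 2.68%. Netrin genes had 5 of the 16, from 74 shared sites (6.76%), semaphorin and plexin genes 5 of 124 (4.03%), Slit and Robo genes 3 of 74 (4.05%) and ephrin genes 3 of 105 (2.86%).

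The widest gap upward was at chr18:72347702-72348059, inside Dcc. Its percentile was 11.8 in trunk, 45.5 in brain, 6.1 in distal and 17.2 in proximal forelimb. The folds were 4.78, 7.0, 3.34 and 4.07, and the pileups 84, 124, 27 and 36 reads. The exact Poisson intervals of the pileups were 67.0 to 104 in trunk and 103 to 148 in brain, which meet at their ends, although trunk was the deeper library. Next was chr8:29016547-29016919 in Unc5d, with folds of 4.64 in trunk, 7.77 in brain, 4.78 in distal and 4.12 in proximal forelimb. The third was chr15:89210911-89211314, 30.1 kb from the start of Plxnb2, with folds of 2.57, 5.08, 3.33 and 2.72. A site in Unc5a led by 15.2 points, a second one near Plxnb2 by 15.0 and a site in Sema3b by 14.6. All 3 had a trunk fold close to that of brain, as 8.57 and 8.40 in Unc5a.

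The widest gap downward was at chr4:136724746-136725233, inside Ephb2. Its percentile was 38.7 in trunk, 2.6 in brain, 55.2 in distal and 58.5 in proximal forelimb. The fold was 9.05 in trunk, 3.08 in brain, 10.28 in distal and 10.82 in proximal forelimb. The brain pileup was 31 reads (exact Poisson 95% interval 21.1 to 44.0), below the 79 of distal forelimb (62.5 to 98.5), although brain had 2.02 times the relative depth. After depth scaling this site was not called in brain. Ephb4 had 2 such sites before its start, ending 0.22 and 5.70 kb from it. At the nearer, chr5:137349400-137349885, which overlaps its promoter window, the folds were 12.39, 6.49, 12.38 and 10.61 in the order of trunk, brain, distal and proximal forelimb. At the other, chr5:137343737-137344410, they were 10.02, 5.76, 7.41 and 7.31. The same window held 2 of the 15 sites missing from brain. Brain minus the lowest other tissue was -24.5 points at the nearer and -13.1 at the other. It was -13.3 at a site in Slit3 and -13.0 at one in Unc5d. The sixth lay in the Unc5b window, within Slc29a3, with folds of 8.19 in trunk, 3.37 in brain, 6.02 in distal and 4.72 in proximal forelimb.

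**Figure D5:**
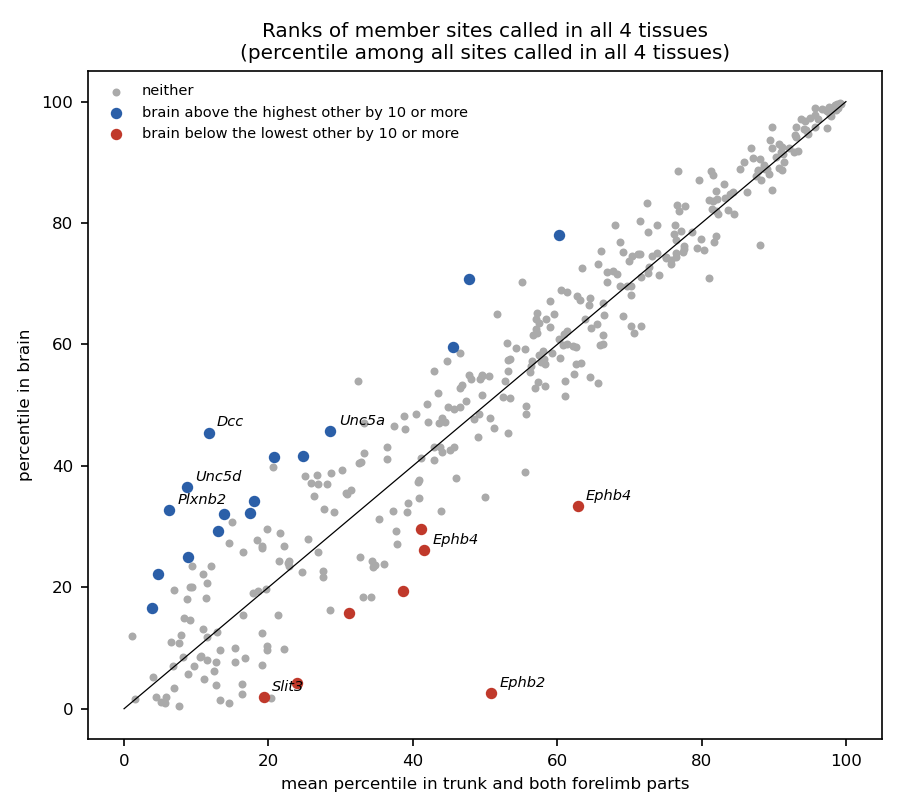
Brain percentile against the mean percentile of the other 3 tissues for the 377 member sites called in all 4 tissues, ranked among all such sites; the line marks equal values. The 16 blue points lie above every other tissue by 10 points or more and the 8 red points below, with the Dcc site at 45.5 in brain and the Ephb2 site at 2.6.

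A wider list of 60 other axon guidance genes, 30 of them further ligands and receptors and 30 adhesion molecules or cytoplasmic effectors, was counted in the same way. It had 969 sites and 6.28 per 100 kb. Of these, 49.6% were called in all 4 tissues, 25.4% in trunk only and 4.44% in brain only. In the 49 genes the corresponding values were 41.1%, 33.6% and 5.99%. After depth scaling these shares were 59.4%, 16.8% and 2.19% in the 60 genes. In the 49 they were then 52.3%, 23.9% and 2.20%, so the brain-only shares were nearly equal. The windows of the 60 came to 15424 kb and those of the 49 to 16406 kb, and lengths were not matched. A brain-only site lay in the windows of 27 of the 60 genes, against 31.3% of protein-coding genes. After depth scaling it was 14 of the 60, against 9.75%. Neither comparison was matched for window length. Sites that were brain-only both before and after scaling lay in the windows of Epha4 (2 sites, with folds of 3.64 and 5.01), Epha6, Draxin, Dscaml1, Nrcam, Nfasc, Dpysl3, Trio, Ngef, Nck2 and Chn1.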

How the data were processed

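CTCF ChIP-seq peak lists of 4 libraries, 1 per tissue, were grouped by the tissue in the labels. MACS2 2.1.1.20160309, Bowtie2 2.3.5, cutadapt 1.16 and SAMtools 1.9 are named, with mm10, in the submitters' processing notes. For caller options, an input control and repeated reads, the sources used here say nothing. For each peak the authors deposited a fold (the ratio of pileup to background with a pseudocount of 1 on both), a −log10 p-value, a −log10 q-value, a score and the summit offset. Rows that repeat an interval were merged. Read totals are not in the deposited lists, so absolute depth is unknown.

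Pileup and background were recovered from fold and p, matching the deposited −log10 p to within 0.000309, and this recovery was tested on simulated data. For depth scaling both were multiplied to the lowest relative depth and peaks with a −log10 p of at least 5 were kept. That cut is stricter than the one of the deposited lists, so the effect of depth alone was not separated. Scaling by expectation adds no sampling noise. A site belonged to a window if any base lay in it. Gene spans came from a RefSeq table of GRCm38.p6; exons were not used here, so exon or intron was not determined. Windows hold other genes, and a site in a window is not thereby assigned to the member.

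The members and the lists were chosen with earlier results of these data known. Named are the 4 densest and 4 sparsest genes, the brain-only sites that stay so after scaling, the 6 strongest sites missing from brain, the 3 highest folds per other tissue, the 6 widest rank gaps in each direction, the strongest shared site per family, and every promoter with a peak. Further genes named for contrast (Robo2, Robo3, the Slit genes, Ntn1, Epha3) were chosen after their values were seen. No test was run between tissues. Alternatives tried were a −log10 q of at least 5, lists of equal length, depth scaling, joining at 50% overlap, no flank or 100 kb flanks, leaving out trunk, a gap of 20 points, and 1 kb around the start. Software was matplotlib 3.10.9, pandas 2.3.3, scipy 1.17.1 and numpy 2.4.6 under Python 3.11.15.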

Additional observations from a re-analysis of the deposited data

How the results depend on the processing

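No paired analysis was possible because there was only 1 library for each tissue. Member density, 5.60 sites per 100 kb, was 4.52 with a −log10 q of at least 5, 3.67 with lists of equal length, 4.15 after depth scaling, 5.02 without flanks and 3.73 without trunk. In the same order the share called in every tissue, 41.1%, was 47.3%, 59.3%, 52.3%, 35.6% and 62.4%. Its value over all sites was 48.9% at the stricter q, 58.0% with lists of equal length, 53.6% after depth scaling and 59.6% without trunk. The trunk-only share, 33.6%, was 9.14% with lists of equal length, 23.9% after depth scaling and 38.3% without flanks. Over all sites it was 6.48% with lists of equal length. The brain-only share, 5.99%, was 2.56% at the stricter q, 2.20% after depth scaling and 17.2% without trunk. Over all sites these 3 were 2.40%, 1.69% and 15.9%, so members stayed near the background. The share missing from brain, 1.63%, was 3.23% after depth scaling, against 2.92% of all sites, and 2.78% without trunk, against 2.51%. The share of shared sites ranked higher in brain, 4.24%, was 9.69% without trunk, against 6.58% of all shared sites, and 0.796% with a gap of 20 points, against 0.372%. A gap of 20 points left 3 sites, in Dcc, Unc5d and the Plxnb2 window. Of 38 promoters, 14 had a peak, and 25 did within 1 kb of the start. For the wider setting no share over all protein-coding genes is given, so the 25 cannot be set against a background. The motif with 1 letter different, chosen after seeing the data, was in 13 windows and the exact motif in 1. Joining at 50% overlap moved no share beyond its counting interval. The trunk-only share has no value without trunk, and joining and flank settings do not apply to promoters. With 1 library per tissue, a site near the threshold cannot be told from one missed by chance of sampling.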
